A study of Saccharomyces cerevisiae with 4 samples.

Results

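Peaks of the chromatin protein Swc4 whose summit lies inside a protein-coding gene of budding yeast, Saccharomyces cerevisiae, are described here and called intragenic peaks. A nuclear peak of the deposited lists was taken when its summit fell inside a coding gene and in no RNA gene. Genes for ribosomal proteins (RPL, RPS and RPP genes) and summits within 30 kb of a chromosome end were left out. The rule found 1765 of 3343 nuclear peaks, with 184 of 616 and 687 of 1139 in yaf9d replicates 1 and 2, and 558 of 884 and 336 of 704 in wild_type replicates 1 and 2. The other 1578 summits lay mostly between genes, with the rest in RNA genes, in ribosomal protein genes or near chromosome ends.

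Swc4 is a subunit shared by SWR1, which swaps histone H2A in nucleosomes for its variant H2A.Z, and by NuA4, which acetylates histones H4 and H2A. Yaf9 is also shared by both complexes and carries a YEATS domain, a fold that binds acylated lysines of histone H3. SWR1 is known to place H2A.Z in the nucleosomes that flank the nucleosome-depleted promoter, of which the downstream one lies at the start of the gene, and NuA4 is known at promoters and over transcribed genes.

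The assay was ChIP-seq, which sequences DNA recovered with a protein. All cells were haploids of the BY background, and Swc4 carried a tag of 13 myc copies in both genotypes, by the sample titles. They grew untreated in rich YPD medium to mid-log phase, and an antibody against myc recovered the chromatin. The yaf9d cells lack YAF9 according to their sample titles, while wild_type cells keep it. Each genotype has 2 libraries, and no label says whether these came from separate cultures, so p-values measure a spread that may be technical. A gene without a peak was not called and is not thereby shown to be unbound.

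The deleted gene gives no direct check, since a peak list holds no reads of unpeaked sequence. No list had a summit inside YAF9. Both yaf9d lists had a peak just past its end, 696 and 700 bp from the start of this 681-bp gene, with folds of 4.88 and 4.66, and neither wild_type list had one there. Folds are the authors' own enrichment values at the summit over a local background, and are used only within their list. Read totals are not given. Summit pileups recovered from the listed values had medians over intragenic peaks of 104 and 134 in yaf9d and 125 and 119 in wild_type, over backgrounds of 54.9 and 81.8 in yaf9d and 70.6 and 64.9 in wild_type. The libraries also stood apart by replicate number at genes of mating, described after the function lists.

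Over genes of all lengths together, the yaf9d share at the gene start was near that of an even spread, while wild_type summits gathered there. The shares of both genotypes changed with gene length, as given below. Each gene was divided into 3 segments of equal length, called here start, middle and end segment along the direction of transcription. The start segment held 66 of 184 and 241 of 687 summits in the yaf9d libraries, or 35.9% (exact 95% binomial interval 28.9 to 43.3) and 35.1% (31.5 to 38.8). It held 329 of 558 and 161 of 336 in the wild_type libraries, or 59.0% (54.8 to 63.1) and 47.9% (42.5 to 53.4). An even spread would put 33% in the start segment, so both yaf9d libraries lay near that value and both wild_type libraries above it. The means were 35.5 ± 0.558% in yaf9d and 53.4 ± 7.81% in wild_type (SD, n = 2 each). The difference of -18.0 percentage points exceeded the spread between replicates, and the genotypes did not overlap (exact two-sided permutation p = 0.33, adjusted p = 0.5). That p is the smallest that 2 against 2 libraries allow, so no genotype difference here could pass 0.05. In all, 15 results were set against each other between genotypes, with Benjamini-Hochberg adjustment over them. Intervals cover counting error only.

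The middle and the end of the gene carried the other side of this difference. The middle segment held 28.3% and 29.3% in yaf9d against 20.4% and 25.0% in wild_type. The end segment held 35.9% and 35.7% in yaf9d against 20.6% and 27.1% in wild_type, with means of 35.8 ± 0.147% in yaf9d and 23.8 ± 4.58% in wild_type (exact permutation p = 0.33, adjusted p = 0.5). The small and the large yaf9d list thus had like shares, although one has 184 members and the other 687.

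**Figure D1:**
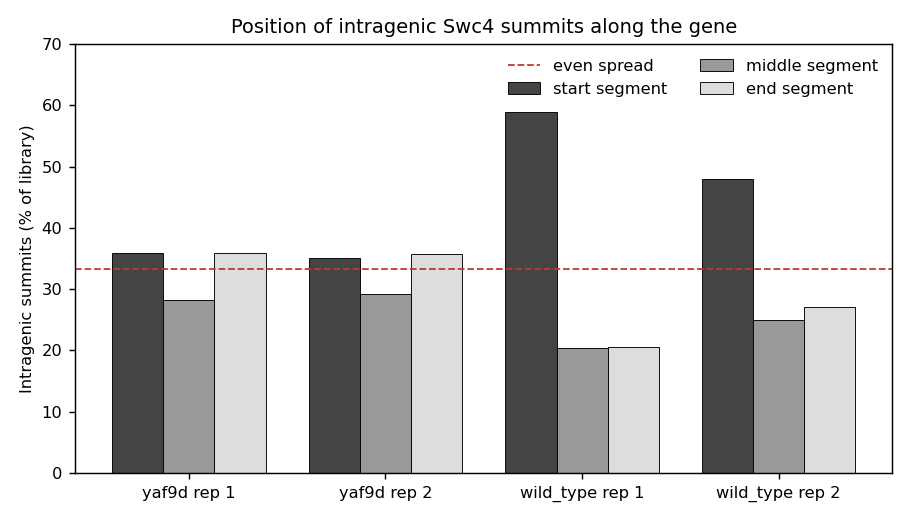
Share of intragenic Swc4 summits (percent of each library's intragenic summits) in the start segment, the middle segment and the end segment of the gene, 1 group of bars per library, with a dashed line at the 33% of an even spread. The start segment holds 35.9% and 35.1% in the yaf9d libraries, left, and 59.0% and 47.9% in the wild_type libraries, right.

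Measured in base pairs, the wild_type summits crowded the first 200 bp of the gene. A summit within 200 bp of the coding start was present in 26.6% and 20.2% of intragenic peaks in yaf9d, against 48.2% and 43.5% in wild_type, while 13.2% of the eligible coding bases lie there. The means were 23.4 ± 4.52% in yaf9d and 45.8 ± 3.36% in wild_type, a difference of -22.4 points without overlap (exact permutation p = 0.33, adjusted p = 0.5). The median distance from the start was 404.5 and 531 bp in yaf9d against 206.5 and 241.5 bp in wild_type. The fullest bin of all 4 libraries ran from 100 to 199 bp, with 17.4% and 14.99% of summits in yaf9d and 26.2% and 25.9% in wild_type. Counted from the start, all libraries therefore had a maximum at the same place, of different height. The bin before it, from 0 to 99 bp, held 9.24% and 5.24% in yaf9d and 22.0% and 17.6% in wild_type. Counted from the gene end, the bin from 100 to 199 bp held 19.6% and 14.3% in yaf9d and 11.3% and 17.6% in wild_type. In yaf9d this share was close to that of the same bin at the start, and in wild_type it was lower. Within 200 bp of the gene end lay 28.8% and 21.5% of summits in yaf9d and 17.6% and 26.2% in wild_type.

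**Figure D2:**
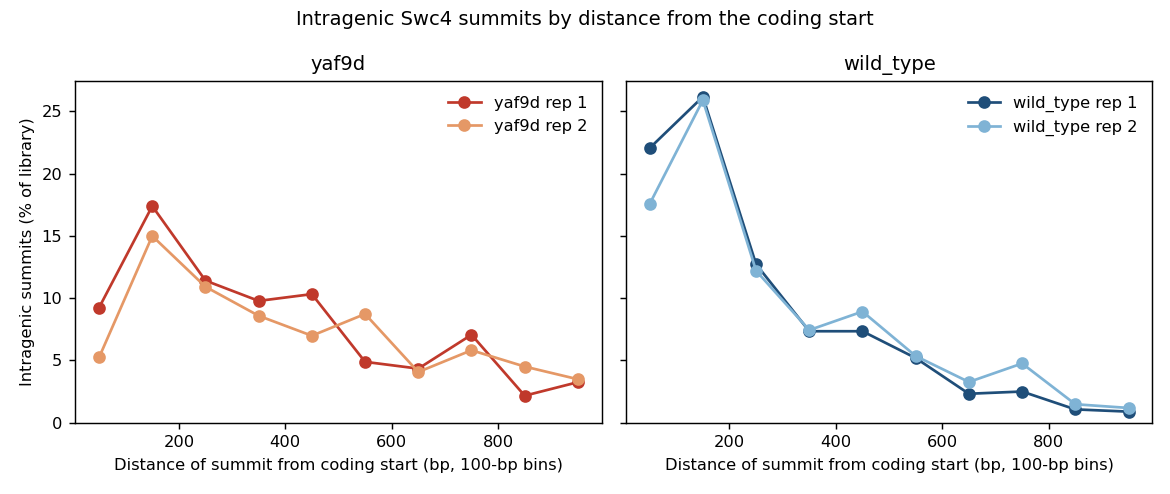
Share of intragenic summits (percent of each library's intragenic summits) by distance from the coding start in 100-bp bins over the first 1000 bp, yaf9d libraries in the left panel and wild_type libraries in the right. Every line peaks in the bin from 100 to 199 bp, at 17.4% and 14.99% in yaf9d and 26.2% and 25.9% in wild_type.

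Summits deep in the gene body were the mirror image. Those 500 bp or more from both gene ends numbered 25 and 153 in yaf9d, or 13.6% and 22.3%, and 38 and 17 in wild_type, or 6.81% and 5.06%. Since 43.8% of the eligible coding bases lie that deep, every library was below an even spread. The means were 17.9 ± 6.14% in yaf9d and 5.93 ± 1.24% in wild_type (exact permutation p = 0.33, adjusted p = 0.5). Intervals that lay wholly inside the gene made up 54.9% and 70.7% in yaf9d against 37.6% and 26.8% in wild_type (exact permutation p = 0.33, adjusted p = 0.5). Peak width moves with this share: the median width was 437 and 412 bp in yaf9d against 458.5 and 619 bp in wild_type, and its part in the share was not tested. Peaks outside the rule had nearly the same widths, 440 and 401 bp in yaf9d and 433.5 and 604 bp in wild_type.

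The start-segment difference had the same direction in short and long genes. In genes over 500 and up to 1000 bp the start segment held 10.3% and 22.0% of summits in yaf9d against 48.7% and 31.3% in wild_type. In genes of 1 kb or longer it held 45.3% and 39.5% in yaf9d against 67.2% and 61.2% in wild_type, a difference of -21.8 points (exact permutation p = 0.33, adjusted p = 0.5). In genes over 3 kb it held 43.8% and 51.4% in yaf9d against 77.3% and 72.7% in wild_type. Both yaf9d shares and that of wild_type replicate 2 were thus below the 33% of an even spread in genes over 500 and up to 1000 bp. In genes of 1 kb or longer every library was above it. A higher share in these longer genes was therefore common to both genotypes. Among the 184 highest folds of each list, the shares were 35.9% and 39.1% in yaf9d and 72.3% and 53.3% in wild_type. The contrast shrank for peaks away from the gene ends. Among peaks wholly inside the gene the start segment held 33.7% and 33.33% in yaf9d, and 46.2% and 33.33% in wild_type, so the genotypes no longer separated and the difference of -6.26 points came from wild_type replicate 1. With summits at least 200 bp inside both ends the shares were 31.0% and 29.4% in yaf9d against 42.6% and 37.0% in wild_type, a difference of -9.54 points. With the middle of the interval in place of the summit the difference was -9.93 points, with 36.4% and 31.5% in yaf9d and 51.1% and 36.6% in wild_type.

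In wild_type the stronger intragenic peaks were the ones nearer the start. Above their list's median fold, 33.7% and 36.0% of yaf9d members and 70.3% and 53.6% of wild_type members were in the start segment. Below that median the shares were 38.0% and 34.1% in yaf9d and 47.7% and 42.3% in wild_type. Median folds of start-segment peaks were 1.64 and 1.66 in yaf9d and 1.80 and 1.78 in wild_type, while those of end-segment peaks were 1.63 and 1.67 in yaf9d and 1.61 and 1.66 in wild_type.

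Yeast genes are closely packed, and some intragenic summits also lie just upstream of another gene. Within 500 bp upstream of another coding start lay 17.4% and 12.5% of members in yaf9d and 24.2% and 21.1% in wild_type, against 7.28% of eligible coding bases. In the end segment of the gene this share was 25.8% and 18.4% in yaf9d and 31.3% and 24.2% in wild_type. Leaving such peaks out gave start-segment shares of 38.8% and 35.4% in yaf9d and 58.2% and 49.1% in wild_type.

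How common intragenic peaks were did not separate the genotypes. They made up 29.9% (exact 95% binomial interval 26.3 to 33.7) and 60.3% (57.4 to 63.2) of nuclear peaks in yaf9d, against 63.1% (59.8 to 66.3) and 47.7% (44.0 to 51.5) in wild_type. The mean share was 45.1 ± 21.5% in yaf9d and 55.4 ± 10.9% in wild_type (exact permutation p = 0.667, adjusted p = 0.769). The mean number was 435.5 ± 356 in yaf9d and 447 ± 157 in wild_type (exact permutation p = 1). The spread was largest within yaf9d: outside genes its 2 libraries had 294 and 247 peaks, like numbers, and inside genes 184 and 687.

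Intragenic peaks were the weak peaks of every list. Their median fold was 1.70 and 1.64 in yaf9d and 1.72 and 1.75 in wild_type, beside 3.11 and 2.65 in yaf9d and 2.21 and 2.24 in wild_type for all other nuclear peaks. A fold of 2 or more was reached by 25.5% and 16.0% of members in yaf9d and 22.9% and 24.7% in wild_type, beside 84.5% and 68.8% of other peaks in yaf9d and 61.0% and 62.8% in wild_type. Of the 100 highest folds in each list, 6 and 9 were intragenic in yaf9d and 15 and 12 in wild_type. Ranked within the list from 0 (strongest) to 100 (weakest), the median member stood at 79.1 and 64.9 in yaf9d and 59.6 and 65.4 in wild_type (exact permutation p = 0.667, adjusted p = 0.769). Ranks from lists of different lengths show no change.

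The genes with intragenic peaks were longer in yaf9d. Median gene length over members was 1260 and 1407 bp in yaf9d against 1162.5 and 999 bp in wild_type, with means of 1333.5 ± 104 bp in yaf9d and 1080.75 ± 116 bp in wild_type. The difference of 252.75 bp exceeded the spread between replicates (exact permutation p = 0.33, adjusted p = 0.5). All 5491 eligible genes had a median of 1248 bp, and the median coding base lies in a gene of 1935 bp. The order did not hold for strong peaks: at a fold of 2 or more the medians were 597 and 1455 bp in yaf9d and 973.5 and 825 bp in wild_type. At a −log10 q of 5 or more they were 861 and 1297.5 bp in yaf9d and 993 and 888 bp in wild_type.

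Very short genes held more than their share of sequence. Genes of up to 500 bp hold 3.10% of eligible coding bases and held 21.2% and 10.6% of members in yaf9d and 15.2% and 21.4% in wild_type. By number they are 14.1% of eligible genes. The yaf9d replicate 2 share was below that value and the wild_type replicate 1 share near it. Members in these genes had a median rank of 63.6 and 54.6 in yaf9d and 43.6 and 55.4 in wild_type. In longer genes it was 82.3 and 66.4 in yaf9d and 61.8 and 69.3 in wild_type, so the peaks in very short genes were the stronger ones in every list. In such a gene a peak of this width can reach the flanks. Over members in genes of all lengths, the interval covered the whole gene for 7.07% and 3.78% in yaf9d and 5.20% and 15.5% in wild_type. The share among very short genes alone was not counted. Genes with a systematic name only are 11.5% of eligible genes and held 15.2% and 8.44% of members in yaf9d and 8.24% and 9.82% in wild_type, above that share in yaf9d replicate 1 and below it in the other lists.

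Few intragenic peaks recurred in all libraries. Of the eligible genes, 180 (3.28%) and 632 (11.5%) had an intragenic summit in the yaf9d lists, and 544 (9.91%) and 327 (5.96%) in the wild_type lists. Both yaf9d lists named 104 genes (1.89%), both wild_type lists 196 (3.57%) and all 4 lists 33 (0.601%). In total 1111 genes had a summit in some list, and 706 of them in 1 list alone, of which 45 and 351 belonged to the yaf9d lists and 229 and 81 to the wild_type lists. The 33 genes of all 4 lists were short, with a median of 780 bp.

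Members of the shorter list of each genotype were shared more often. Of yaf9d members, 57.6% in replicate 1 and 17.9% in replicate 2 were overlapped by at least 1 bp by a peak of the other yaf9d list. Of wild_type members, 42.5% in replicate 1 and 66.4% in replicate 2 were overlapped by the other wild_type list. The means were 37.8 ± 28.1% in yaf9d and 54.4 ± 16.9% in wild_type (exact permutation p = 0.667, adjusted p = 0.769). The mean overlap with a list of the other genotype was 42.1% and 26.7% for the yaf9d libraries and 28.3% and 36.6% for the wild_type libraries (exact permutation p = 1). Over the pairings of lists, 17.9% to 66.4% of members and 57.9% to 83.6% of nuclear peaks outside the rule were overlapped. The shares were closest for wild_type replicate 2 by wild_type replicate 1, with 66.4% of members and 68.5% of other peaks.

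Members that the other genotype did not call differed in place between the genotypes. In yaf9d 31.3% and 32.3% of these were in the start segment, and 72.3% and 78.6% lay wholly inside the gene. In wild_type 64.7% and 50.0% of these were in the start segment, and 37.4% and 30.9% lay wholly inside. Where 2 libraries had a summit in the same gene under overlapping peaks, the places nearly coincided. The median offset along the gene, yaf9d minus wild_type, was 12, 7.5, 6 and 3 bp downstream over the 4 pairings of 77, 52, 179 and 139 peaks, against -0.5 bp between the yaf9d libraries and -3 bp between the wild_type libraries. Only summits under overlapping peaks enter these offsets, so large offsets are mostly left out by the choice of pairs. Genes whose summits lay far apart in the genotypes, such as DED81 below, are not among them. The offsets therefore do not bear on the difference in median distance from the start. Those medians were 404.5 and 531 bp in yaf9d against 206.5 and 241.5 bp in wild_type.

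Overlapping intragenic peaks were merged into 1179 loci, of which 792 rested on 1 list and 40 on all 4. Of 99 loci called in both yaf9d lists, 30 were touched by no wild_type peak, 10 in the start, 7 in the middle and 13 in the end segment. Of 212 loci called in both wild_type lists, 89 were touched by no yaf9d peak. Among these, 54 lay in the start, 23 in the middle and 12 in the end segment. The shorter list of a genotype limits such counts, with 184 members in yaf9d and 336 in wild_type. The same counts were not made for nuclear peaks outside the rule. They therefore show nothing particular to intragenic peaks.

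Several of the best-ranked loci were common to the genotypes, and many lay in very short genes. Of the 10 best loci by mean rank, 6 were shared by the genotypes, and 8 of the yaf9d loci and 5 of the wild_type loci lay in genes of up to 500 bp. YDR010C, a 333-bp open reading frame with a systematic name only, ranked best in yaf9d (chromosome IV, 464746 to 465597). Its fold was 12.1 and 7.45 in yaf9d and 4.36 and 3.28 in wild_type, with the summit 50 to 69 bp from its start and 586 bp upstream of SNQ2, which encodes a multidrug transporter. YPR064W, of 420 bp (chromosome XVI, 678524 to 679413), had folds of 8.20 and 7.49 in yaf9d and 2.91 and 3.64 in wild_type, 523 bp upstream of ROX1, the repressor of hypoxic genes. FYV12, of 390 bp (chromosome XV, 678733 to 679249), ranked best in wild_type and had folds of 8.09 and 4.42 in yaf9d and 4.10 and 5.78 in wild_type, 224 bp upstream of the ribosomal protein gene RPS30B. These summits sat inside an annotated gene and in front of another one, so the rule counts them as intragenic.

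Further loci of all 4 lists were found along the whole gene. YEL008W (chromosome V, 140430 to 141255) had folds of 4.34 and 3.79 in yaf9d and 2.47 and 4.21 in wild_type in the middle of a 381-bp gene. YOR343C (chromosome XV, 967988 to 968550) had 4.42 and 3.59 in yaf9d and 2.35 and 3.37 in wild_type in the end segment. RSM25, a mitochondrial ribosomal protein gene of 795 bp (chromosome IX, 187279 to 188724), had 1.86 and 2.05 in yaf9d and 1.67 and 2.12 in wild_type, with summits 733 and 721 bp from its start in yaf9d and 699 and 709 bp in wild_type. SHR5, which encodes a subunit of a Ras palmitoyltransferase, shared a locus with ZEO1 (chromosome XV, 109162 to 110641) and had folds of 3.18 and 2.42 in yaf9d and 1.82 and 1.89 in wild_type, where the replicate 2 summit lay in ZEO1. Retrotransposon genes supplied YOL103W-B (5.85 and 3.82 in yaf9d, 3.81 and 3.13 in wild_type) and YLR256W-A (3.48 and 3.27 in yaf9d, 2.56 and 2.69 in wild_type), both with summits in the start segment. These elements exist in near-identical copies, and how shared reads were placed is not given in the sources used here.

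Loci called in both yaf9d lists without a wild_type peak were led by YLR111W (chromosome XII, 370478 to 371364), with folds of 3.78 and 3.94. SRC1, which encodes an inner nuclear membrane protein, had folds of 2.17 and 2.71 at 178 and 191 bp from its start (chromosome XIII, 209509 to 209844). YPR015C had 1.92 and 2.29, LCL1 2.22 and 1.87, and BRP1, beside the proton pump gene PMA1, 2.33 and 2.65. The retrotransposon gene YOR192C-B had 2.51 and 2.36. The mean rank of these 5 ran from 38.1 to 51.4, against 16.7 for YLR111W. UTR5 (chromosome V, 85043 to 86717) had intragenic folds of 6.45 and 5.63 in yaf9d, while the wild_type peaks of the merged locus, at 1.44 and 2.14, had summits outside UTR5. YKL097C, which shares a locus with the cell wall gene CWP2 (chromosome XI, 258422 to 259951), had 4.73 and 5.24 in yaf9d, and there the wild_type lists gave 1 peak, in replicate 2, with a fold of 1.53 and its summit in CWP2.

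Loci called in both wild_type lists without a yaf9d peak were led by genes of ribosome assembly, each with its summit close to the start. RRP7 (chromosome III, 65067 to 66186), needed for the small ribosomal subunit, had folds of 3.45 and 2.81 with summits 47 and 48 bp from the start. BMS1 (chromosome XVI, 142777 to 143292), a GTPase of the same assembly path, had 3.44 and 2.58 at 114 and 124 bp of a 3552-bp gene. UTP9 (chromosome VIII, 491772 to 492165), part of the processome that matures the small-subunit RNA, had 2.92 and 2.73 at 19 and 2 bp. FUN12, the gene of initiation factor eIF5B (chromosome I, 75968 to 76932), had 3.15 and 2.26 at 97 and 101 bp. GCS1, which encodes a GTPase-activating protein of vesicle traffic, had 2.69 and 2.49 at 88 and 73 bp, and TOM6, part of the mitochondrial import pore, 2.51 and 2.61 at 35 and 51 bp. All 6 pairs of summits lay within the first 124 bp of the gene. YDL186W ranked among the best wild_type loci too, with 2.95 and 2.53, and had a yaf9d peak of 1.88 in replicate 2.

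**Figure D3:**
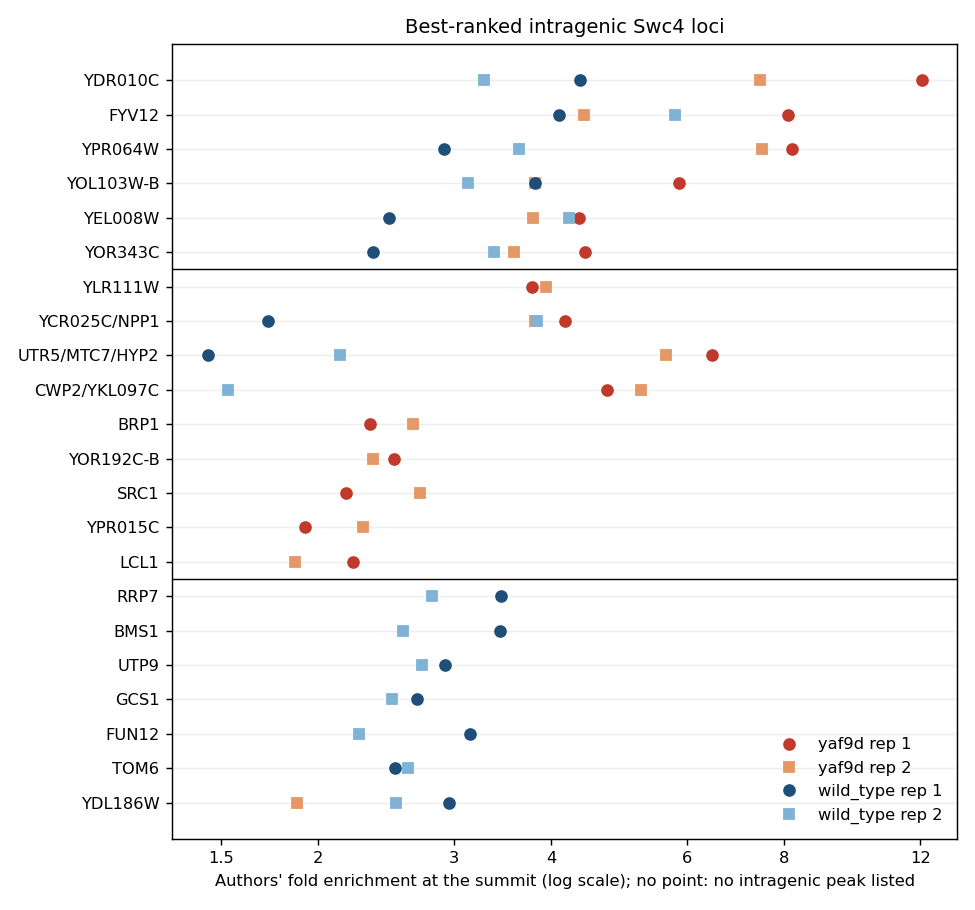
The authors' fold at the summit (log axis) of the best-ranked intragenic loci, circles for replicate 1 and squares for replicate 2, yaf9d in red and orange and wild_type in blue. A missing point means that no intragenic peak was listed there. At loci labelled with several genes, a point may have its summit in any of them. Folds belong to their own list; YDR010C is highest in yaf9d at 12.1 and 7.45, and RRP7 to TOM6 have wild_type points alone.

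Genes with several summits show the extent of the pattern within a gene. EFT2, which encodes elongation factor eEF2, had 7 summits at 2 places, near 446 bp in all 4 lists (folds of 1.71 and 2.47 in yaf9d and 1.94 and 2.09 in wild_type) and near its end in yaf9d replicate 2 and both wild_type lists (2.18 in yaf9d and 1.33 and 1.91 in wild_type). Its near-identical copy EFT1 had 6 summits at the same 2 places. SSB2, a ribosome-bound chaperone gene with a copy in SSB1, also had 7. Reads of such copies may be split between them, so these counts are uncertain. The retrotransposon gene YPR158C-D had 5.

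Among the longest genes with summits in at least 2 lists, FAS2 (5664 bp), the fatty acid synthase alpha subunit, had 6 summits, 3 in yaf9d replicate 2 and 3 in wild_type. Of these, 3 lay within 114 bp of the gene end, in yaf9d replicate 2 and both wild_type lists. FAB1 (6837 bp), a lipid kinase gene, had 1 summit in yaf9d replicate 1 and 1 in wild_type replicate 1. FKS1, the glucan synthase gene, kept to within 354 bp of the start in 3 lists, and UBR2, a ubiquitin ligase gene, to within 102 bp of the end in 2.

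Gene lists of 15 functions were counted against the shares of all eligible genes given above, 3.28% and 11.5% in the yaf9d lists and 9.91% and 5.96% in the wild_type lists. No list was tested between genotypes. Translation factors had the highest share of any list in yaf9d replicate 2 and in both wild_type libraries. Of 33 genes, 4 and 17 had an intragenic summit in yaf9d (12.1% and 51.5%) and 18 and 13 in wild_type (54.5% and 39.4%). TEF2, an elongation factor eEF1A gene with an identical protein from TEF1, had its summit 761 and 763 bp from the start in yaf9d and 782 and 768 bp in wild_type, close to the middle of a 1377-bp gene. Reads of this pair may be shared. GCD11, which encodes a subunit of initiation factor eIF2, had a summit at 1402 bp of 1584 in yaf9d replicate 2. In wild_type it had summits at 153 and 27 bp, and replicate 1 had another at 1426 bp with a fold of 1.37, under a peak that overlaps the yaf9d one.

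Glycolysis and fermentation genes came next in the same 3 lists. Of 22 eligible genes, 3 and 9 had a summit in yaf9d (13.6% and 40.9%) and 9 and 6 in wild_type (40.9% and 27.3%). In yaf9d 0 of 3 and 0 of 10 summits lay in the start segment, where wild_type had 5 of 9 and 2 of 7. PDC1, pyruvate decarboxylase, was called in all 4 lists, at 1085 and 1066 bp in yaf9d and 1040 and 1070 bp in wild_type of a 1692-bp gene. Its folds were low, 1.14 and 1.46 in yaf9d and 1.20 and 1.17 in wild_type, with a mean rank of 96.0 on the scale of 0 to 100. ENO2, enolase, had summits at 1012 and 1025 bp in yaf9d and at 128 bp in wild_type replicate 1. Both TDH2, a glyceraldehyde-phosphate dehydrogenase gene, and ENO2 have close paralogs, so their reads may be shared.

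Aminoacyl-tRNA synthetases, which charge tRNAs, were mostly a wild_type group. Of 18 genes, 1 and 1 had a summit in yaf9d (5.56% in each) and 7 and 4 in wild_type (38.9% and 22.2%), where 6 of 7 and 4 of 4 summits were in the start segment. TYS1, tyrosyl-tRNA synthetase, had folds of 2.49 and 2.08 in wild_type at 151 and 153 bp, and CDC60, leucyl-tRNA synthetase, 2.20 and 1.82, with no yaf9d summit in either gene. DED81, asparaginyl-tRNA synthetase, had its summit at 1422 bp of 1665 in yaf9d replicate 2, and at 45 and 92 bp in wild_type.

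Of 37 ribosome assembly and RNA polymerase I genes, 0 and 5 had a summit in yaf9d (0% and 13.5%) and 8 and 10 in wild_type (21.6% and 27.0%). The yaf9d replicate 2 share was close to the 11.5% of all eligible genes. A count of 0 allows a share of up to 8.11% in yaf9d replicate 1. Their summits were in the start segment for 4 of 5 in yaf9d replicate 2 and for 7 of 8 and 8 of 11 in wild_type. NOP1, the nucleolar methyltransferase fibrillarin, had folds of 1.53 in yaf9d replicate 2 and 1.81 and 1.45 in wild_type. Other members, DBP2 and NOG2, were called in the same 3 lists.

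Plasma membrane transporters and pumps were called more often in yaf9d. Of 38 genes, 6 and 15 had a summit in yaf9d (15.8% and 39.5%) and 1 and 3 in wild_type (2.63% and 7.89%). In both yaf9d lists stood 5 of them. FTR1, the iron permease, was called in all 4 lists, with folds of 2.09 and 1.69 in yaf9d and 1.502 and 1.283 in wild_type. FET3, the ferroxidase that works with it, had 1.88 and 2.15 in yaf9d, and PTR2, a peptide transporter, 1.59 and 1.79 in yaf9d, with no wild_type summit in either. At the FET3 locus a wild_type replicate 2 peak of 1.75 had its summit outside the gene. The amino acid permease genes AGP1 and TAT2 were also called in both yaf9d lists, AGP1 at different places. In yaf9d replicates 1 and 2 the highest-fold summits of FTR1 lay 182 and 540 bp from its start. Those of FET3 lay at 304 and 628 bp, and those of PTR2 at 97 and 99 bp.

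Heat shock proteins and chaperones had 5 and 7 of 29 in yaf9d (17.2% and 24.1%) and 2 and 3 in wild_type (6.90% and 10.3%). SSA1 and SSA2, near-identical genes of cytosolic Hsp70, and HSP60, the mitochondrial chaperonin, were called in both yaf9d lists and in neither wild_type list, with folds between 1.41 and 2.17. Near the end of SSA1 both yaf9d lists had a summit, 1847 and 1858 bp from its start, and replicate 2 had others within the gene. SSA2 was called 400 and 404 bp from its start, and HSP60 at different places, 331 and 1661 bp.

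The next 5 lists had their highest share in yaf9d replicate 2, which also had the highest share of all eligible genes. That share was 11.5% there, beside 3.28% in yaf9d replicate 1 and 9.91% and 5.96% in wild_type. The highest share of a list therefore does not by itself set this library apart. Amino acid biosynthesis had 2 and 18 of 57 in yaf9d (3.51% and 31.6%) and 9 and 8 in wild_type (15.8% and 14.0%). Cell wall glycoproteins had 2 and 16 of 48 in yaf9d (4.17% and 33.33%) and 7 and 8 in wild_type (14.6% and 16.7%). Respiration and ATP synthase genes had 1 and 8 of 35 in yaf9d (2.86% and 22.9%) and 3 and 4 in wild_type (8.57% and 11.4%). HIS3, of histidine synthesis, had its summit near its end in 3 lists, at 572 bp of 663 in yaf9d replicate 2 and 571 and 566 bp in wild_type. TIP1, a mannoprotein gene, was called in the same 3 lists and likewise near its end. Proteasome and ubiquitin genes had 1 and 10 of 36 in yaf9d (2.78% and 27.8%) and 7 and 4 in wild_type (19.4% and 11.1%), and lipid and sterol synthesis had 2 and 5 of 31 in yaf9d (6.45% and 16.1%) and 4 and 3 in wild_type (12.9% and 9.68%).

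Subunit genes of SWR1 and NuA4, counted together with those of INO80, were near the share of all eligible genes in 3 lists. They were above it in wild_type replicate 1. Of 34 SWR1, NuA4 and INO80 subunit genes, 1 and 4 had a summit in yaf9d (2.94% and 11.8%) and 7 and 2 in wild_type (20.6% and 5.88%). SWR1, the catalytic subunit, had a fold of 3.49 at 104 bp in wild_type replicate 1, and a wild_type replicate 2 peak of 3.07 overlapped it with its summit outside the gene. EPL1, a NuA4 subunit, had 1.48 and 1.91 in wild_type at 82 and 78 bp, and a yaf9d replicate 1 peak of 2.44 at that locus had its summit outside EPL1. SWC4 had no peak in any list. DNA repair and checkpoint genes had 0 and 1 of 35 in yaf9d (0% and 2.86%) and 1 and 2 in wild_type (2.86% and 5.71%). Kinetochore, cohesin and spindle genes had 0 and 1 of 43 in yaf9d (0% and 2.33%) and 4 and 2 in wild_type (9.30% and 4.65%). These shares were below those of all eligible genes in every library, in part by little, as with 5.71% beside 5.96% in wild_type replicate 2. For these lists the count of 0 in yaf9d replicate 1 allows shares of up to 8.57% and 6.98%, above the 3.28% of all eligible genes there. DSN1, of the kinetochore, had folds of 2.41 and 2.23 in wild_type at 40 and 83 bp. Nuclear pore genes had 1 and 2 of 30 in yaf9d (3.33% and 6.67%) and 6 and 1 in wild_type (20% and 3.33%). They were near or below the share of all eligible genes except in wild_type replicate 1. NUP49 led them there with a fold of 3.53 at 77 bp.

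**Figure D4:**
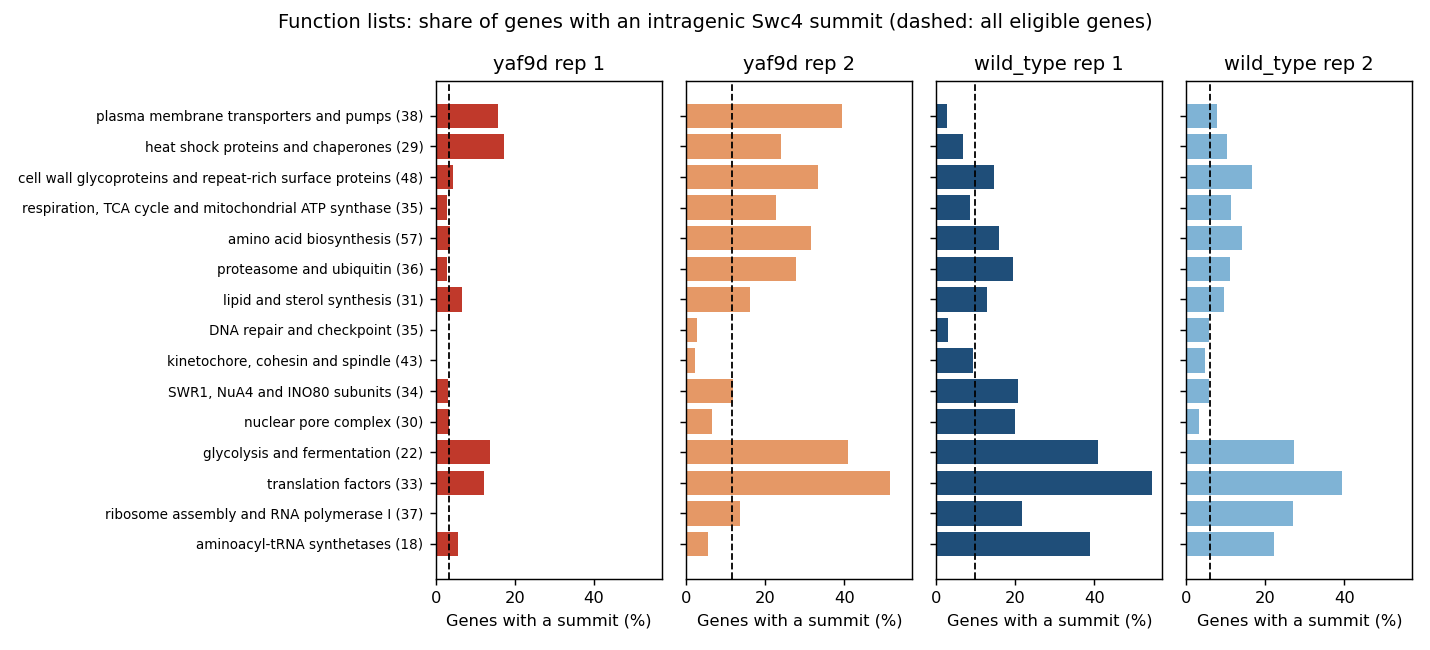
Share of each function list's eligible genes (percent, list size in brackets) with an intragenic summit, 1 panel per library, yaf9d left and wild_type right; dashed lines mark all eligible genes at 3.28%, 11.5%, 9.91% and 5.96%. Translation factors reach 51.5% in yaf9d replicate 2 and 54.5% in wild_type replicate 1, and aminoacyl-tRNA synthetases stand at 5.56% in both yaf9d panels.

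A group of strong intragenic peaks followed the replicate number and not the genotype. Replicate 2 of both genotypes had peaks in STE2, the alpha-factor receptor gene (4.24 in yaf9d and 4.87 in wild_type), in STE6, the a-factor exporter gene (4.92 in yaf9d and 3.82 in wild_type), and in BAR1, the protease that degrades alpha-factor (3.83 in yaf9d and 3.41 in wild_type). A peak in CMI8, 457 and 450 bp from the start of the a-factor gene MFA1, had folds of 6.75 in yaf9d and 8.43 in wild_type. None of these was in either replicate 1 list, although wild_type replicate 1 had a peak of 1.66 beside CMI8, in MRPL28. These are genes that cells of mating type a express, and they were singled out after their values were seen. Other a-specific genes (MFA2, AGA2 and ASG7) and alpha-specific genes (STE3, SAG1, MF(ALPHA)1 and MF(ALPHA)2) had no peak in any list. The mating type of the strains is not in the labels, and its part in these peaks was not tested. Of all 1179 merged loci, 28 were called in both replicate 2 lists with no replicate 1 peak. Another 16 were in both replicate 1 lists with no replicate 2 peak. With no other peak, 55 were in yaf9d replicate 2 and wild_type replicate 1, and 3 in yaf9d replicate 1 and wild_type replicate 2. The lists differ in length, with 184 and 687 members in yaf9d and 558 and 336 in wild_type. The same counts were not made for other nuclear peaks, so these do not set replicate 2 apart.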

How the data were processed

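ChIP-seq peak lists of 4 libraries were used, 1 list called per library. Per the submitters' processing notes, the authors used MACS2 (version 2), SAMtools 1.4 and BWA 0.7.15-r1140. The role of each tool, the build, the threshold and the control were not given in the sources used here. The deposited lists give positions, a ratio (the authors' fold over a local background), a −log10 p-value and −log10 q-value, and a score that repeats the q-value. The authors' lowest listed −log10 q was 1.31.

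Genes came from a RefSeq table of assembly R64, whose coordinates are not printed. As a check that positions match, 276 summits lay within 300 bp of a tRNA gene's middle, 88.8% of them within 100 bp. Strand was read from the systematic name, chromosome ends were the outermost gene or peak end, and a summit in 2 coding genes went to the longer. Gene length includes introns. Retrotransposon genes (91) were known by locus name. Positions are 1-based, as in the peak lists.

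Pileups were recovered from fold and p-value by a Poisson tail (tolerance 0.001) for 99.5% and 100% of members in yaf9d and 99.6% and 100% in wild_type. Library values of the genotypes were set against each other by exact permutation, two-sided (Python 3.11.15, scipy 1.17.1), and the placement along the gene was tested on 200 simulated summits, 200 of them right. Deviations of same-numbered libraries had a correlation of -0.016 over all genes. That value does not bear on a few single loci, and loci shared by replicate 2 are in the report. The labels name nothing shared by a number, so numbers were not treated as pairs in the main comparisons. Loci are merged overlapping intragenic peaks. Named were up to 10 best loci per genotype by mean rank, up to 6 best loci of each genotype alone, the 3 best loci of all 4 lists in the start segment, the middle segment and the end segment, the 5 longest genes with summits in at least 2 lists (1 is not reported here), the 5 with most summits, and up to 3 members per function list. Other genes named were chosen after their values were seen. The members and lists were chosen with earlier results of these data known. Of the list names, 1 had no match. No sequences are shown, since no genome was used here.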

Additional observations from a re-analysis of the deposited data

Results flagged for a closer look

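Mitochondrial peaks, outside the nuclear comparisons, appeared in 1 library. Yaf9d replicate 2 listed 39 of them, with folds from 1.37 to 2.37 (median 1.85), while yaf9d replicate 1 and both wild_type lists had 0. Yaf9d replicate 2 is also the library with the most intragenic peaks, 687. Whether these are related was not tested.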

How the results depend on the processing

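All differences here are yaf9d minus wild_type. The mean differences in start-segment share, gene length, rank and width kept their sign under all 16 alternatives each. They ranged from -25.5 to -6.26 points, 126.75 to 383.25 bp, 1.12 to 17.4 points and -194.5 to -34 bp. A kept sign does not mean that the genotypes separated. Ranks overlapped already in the main result. Gene lengths and widths overlapped at a fold of 2 or more, and start-segment shares with whole intervals inside. The number of intragenic peaks (-11.5) turned to 48.5 with interval middles, 88.5 with summits 200 bp inside, 143.5 with whole intervals inside, 48.5 in genes of 1 kb or longer and 32.5 without neighbours' promoters. Leaving out each library in turn gave -263 (without yaf9d replicate 2) to 240 (without yaf9d replicate 1). The intragenic share (-10.3 points) turned to 5.23 with summits 200 bp inside and 11.3 with whole intervals inside, and ran from -25.6 to 4.89 without each library. Overlap with the other library of the genotype (-16.7) ran from -36.5 to 3.19. Overlap with the other genotype (1.95) turned to -4.93, -2.54, -4.86 and -0.640 with summits 200 bp inside, whole intervals inside, genes of 1 kb or longer and neighbours' promoters left out, and ran from -5.75 to 9.66. No direction is given for these 4 results, and the causes were not tested. The start-segment difference was -12.4 without wild_type replicate 1 and -23.5 without wild_type replicate 2.

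With the replicate number as a block, which pairs libraries by number alone, the start-segment difference was -18.0 (exact sign-flip p = 0.5, the smallest possible) and the number differed by -11.5. The block changed no call. With 2 libraries per genotype and no read totals, peaks near the authors' threshold limit the precision, and uncalled sites cannot be told apart from unbound ones. The equal-size lists and neighbours' promoters were alternatives added after seeing the data.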

Other observations

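Genes of iron uptake and use were called above the share of all eligible genes in all 4 libraries. The list was made after their values were seen, so shares above that of all eligible genes may follow from this choice. Of 20 eligible genes, 7 and 8 had an intragenic summit in yaf9d (35% and 40%), beside 3.28% and 11.5% of all eligible genes, and 4 and 2 in wild_type (20% and 10%), beside 9.91% and 5.96%. In both yaf9d lists stood FTR1, FET3, FIT2, FIT3 and FRE6, that is, the high-affinity iron permease and ferroxidase, a pair of cell wall mannoproteins that hold siderophore iron, and a vacuolar reductase. FIT2 had folds of 1.85 and 2.32 and FIT3 of 1.37 and 2.32 in yaf9d, with no wild_type summit in either gene, though a wild_type replicate 2 peak of 1.54 touched the FIT2 locus, and FRE6 1.38 and 1.69 near its end. CCC2, the copper transporter that loads Fet3, and TIS11, which degrades mRNAs in iron shortage, were called in yaf9d replicate 1 and wild_type replicate 1.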
